A study of Mus musculus with 68 samples.

Results

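The 38 genes described here encode the actins of non-muscle cells and the proteins that recycle actin subunits, cap or sever filaments, or start filament branches through the Arp2/3 complex. They were taken by gene symbol from the 36172 genes of the deposited table, and all 38 were found there. The set was drawn up around Cap1, a gene selected on its genotype difference in these same 68 cells, so its values are a description and no test is given for them. The other members were chosen by what their proteins do, with earlier results of these data known. RNA was drawn into the pipette after patch-clamp recording of single dopamine (DA) neurons in the ventral tegmental area (VTA) of 12-month-old male and female mice, a method called Patch-seq. The table holds 33 cells of 3xTg mice, whose homozygous transgenes include APP Swe and Tau P301L, and 35 cells of WT mice, a line without these transgenes that is kept apart with the same mixed origin, C57BL/6;129×1/SvJ;129S1/Sv. The labels do not name the mouse of a cell, so each genotype is 1 sample, cells are not replicates of it, and no p-value is given. Every SD below is a spread across cells.

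Actin filaments gain subunits mainly at the barbed end and lose them at the pointed end. ADF/cofilin proteins sever and disassemble old filaments, cyclase-associated proteins (CAPs) speed the loss of subunits from the pointed end and recharge the released actin with ATP, and profilin carries the recharged subunit back to growing ends. The Arp2/3 complex, made of 7 subunits, starts a new filament on the side of an old filament when N-WASP or a WAVE protein activates it. In neurons this cycle shapes growth cones, dendritic spines and the actin under the membrane.

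Each cell had between 492505 and 1678624 counts, with a median of 1194457 in 3xTg and 982390 in WT. At least 1 count was found for a median of 8629 genes per 3xTg cell and 7603 genes per WT cell. The DA neuron markers Th, Slc6a3, Slc18a2 and Ddc were counted in all 68 cells. Markers of other cells were present at very different levels. The summed microglial markers (8 genes) lay between 0 and 7139 CPM in 3xTg cells and between 0 and 5142 CPM in WT cells, beside DA neuron marker sums from 6682 CPM upward in 3xTg and from 4636 CPM upward in WT, where CPM scales the counts of a cell to a total of 1000000, and Aldh1l1, Cldn5 and Pecam1 were at 0 in every cell. The astrocyte markers reached 272 CPM in a 3xTg cell and 2410 CPM in a WT cell, and the oligodendrocyte markers 583 and 2540 CPM. Summed over cells, 2 of the 8 microglial, 1 of the 5 astrocyte, 1 of the 5 oligodendrocyte markers and 0 of the 5 markers of other neurons were higher in 3xTg, as were 42.3% of all genes with a count. So were 4 of the 4 DA neuron markers, with a median difference of 0.65 and a median ratio of 0.35. Numbers in the cell labels fall into runs of a single genotype, WT 1 to 22 (17 cells), 3xTg 24 to 55 (21 cells), WT 57 to 74 (15 cells), 3xTg 76 to 92 (12 cells) and WT 94 to 96 (3 cells). What these numbers stand for is not stated, so results are also given separately for the first run of each genotype and for the second. The median number of genes with a count was 5367 in the first WT run, 7768 in the first 3xTg run, 8559 in the second WT run and 9429 in the second 3xTg run. The differences of Th and Slc6a3 were −0.09 and −0.05 for the first runs and 1.12 and 1.40 for the second. Those of Slc18a2 and Ddc were 0.55 and 0.27 for the first and 1.12 and 0.84 for the second. The ratios of these DA neuron markers were above 0 in both pairs of runs.

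The levels below are normalized counts, which are counts divided by a size factor for each cell, and a difference is that of the mean of log2(normalized count + 1), 3xTg minus WT. A ratio is the log2 ratio of the counts summed over the cells of a genotype, each as CPM, which gives little weight to cells at 0. Both are needed here because they do not centre on the same value. The median of the 3988 expressed genes was 0.47 for the difference and −0.03 for the ratio. A gene was taken as expressed where no fewer than 80% of 3xTg cells, or of WT cells, reached a normalized count of 1. Of the 38 members, 26 were expressed, 20 of them in both genotypes and 6 through the 3xTg cells alone (Cap1, Wdr1, Actr3, Arpc1a, Wasl and Cttn), so that these 6 were bound to lean towards 3xTg.

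Cap1 encodes the CAP that is found in most tissues. Its transcript was higher in 3xTg cells on every measure. In the table of the authors it lies on the minus strand of chromosome 4 (chr4:122859228-122885881, mm10). Normalized counts ranged from 0 to 730 with a median of 164 in the 33 3xTg cells. In the 35 WT cells they ranged from 0 to 553 with a median of 0. The genotypes overlapped, since 5 3xTg cells had no count and the highest WT cells lay among the highest 3xTg cells. The mean was 6.33 ± 3.01 in 3xTg and 2.57 ± 3.26 in WT (log2, SD across cells), a difference of 3.76, or 3.29 above the median expressed gene. This was the largest difference among the 3988 expressed genes, and its ratio of 2.05 ranked 3 among them. In all, 8245 Cap1 counts (95% Poisson interval 8068 to 8425) were found in 3xTg cells and 1850 (1767 to 1936) in WT cells, or 225 and 54.4 CPM.

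**Figure D1:**
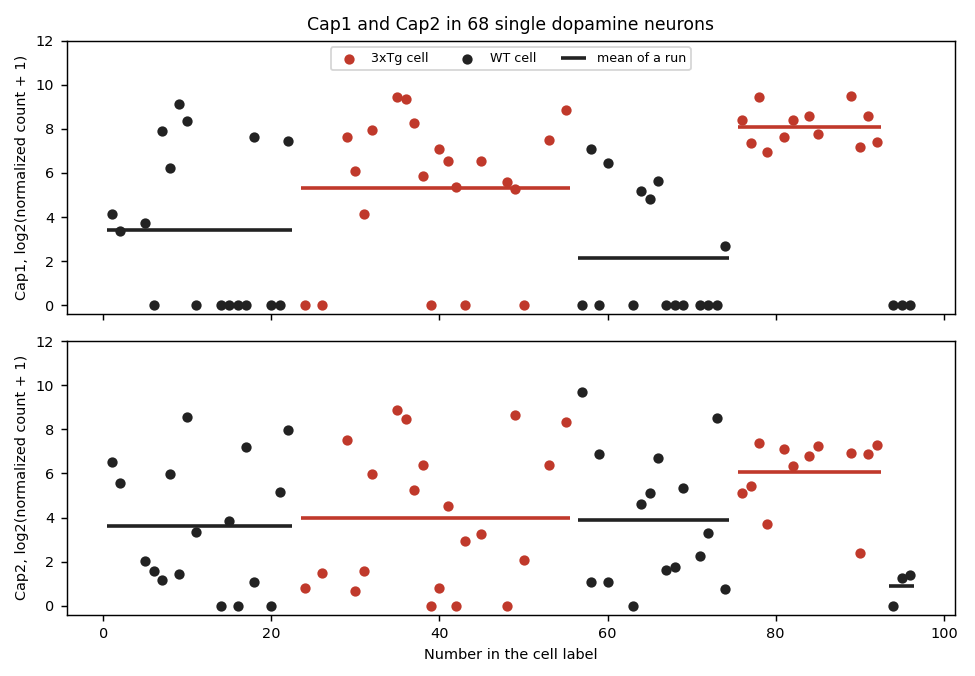
Cap1 (upper plot) and Cap2 (lower plot) in each of the 68 cells as log2(normalized count + 1), against the number in the cell label. Red points are 3xTg cells, black points WT cells, and each bar is the mean of a run. All 12 cells of 3xTg 76 to 92 lie above 6 for Cap1, whereas 25 cells of the other runs lie at 0, and Cap2 shows a smaller step.

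Much of the Cap1 difference lay in how many cells had a count at all. Cap1 was counted in 28 of 33 3xTg cells (84.8%, exact binomial interval 68.1% to 94.9%) and in 15 of 35 WT cells (42.9%, 26.3% to 60.7%). These intervals, like those of the sums, cover counting error only. They leave out the spread between mice and the PCR amplification of the libraries, which carry no stated molecular identifiers. Few cells lay in between. Over all 68 cells, 25 had a Cap1 count of 0, a single cell had 1 to 9 counts, 13 had 10 to 99 and 29 had 100 or more. Among the cells with a count, 3xTg had a median of 189 and WT a median of 73.7 normalized counts, and the means lay 1.47 apart. Ppt1, the neighbouring gene on the other strand, whose 3′ end lies 53 bases from that of Cap1, had 10299 counts in 3xTg and 8293 in WT, and no gene of the table overlaps Cap1.

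The size of the Cap1 difference was not the same along the label numbers. Cap1 was counted in 9 of 17 cells of the first WT run and 16 of 21 of the first 3xTg run. It was counted in 6 of 15 cells of the second WT run, in 12 of 12 cells of the second 3xTg run and in 0 of the 3 cells WT 94 to 96. Taken over the first runs, the difference was 1.90 and the ratio 0.92. Over the second runs they were 5.98 and 3.57. It was thus higher in 3xTg in both pairs of runs, but by a far larger amount in the second. Among 3xTg cells the mean of Cap1 was 2.80 higher in the second run than in the first, where the median expressed gene was 0.46 higher. Among WT cells the same step was −1.29 for Cap1 and 0.49 for the median expressed gene. Genes with a count per cell moved with Cap1 inside 3xTg (Spearman rho 0.42, n = 33) and little inside WT (rho 0.06, n = 35). Inside the 3xTg runs the sign differed, with rho 0.64 in the first (n = 21) and −0.37 in the second (n = 12). Leaving out the 10 cells with a glial or Pvalb marker (Tmem119, P2ry12, Aldh1l1, Pvalb), the genotype difference of Cap1 was 3.94. In a straight-line fit that also held the genes detected in each cell, it was 3.10.

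Cap2, the CAP that is prominent in brain and muscle, showed a smaller difference than Cap1. Its normalized counts ranged from 0 to 474 with a median of 42.6 in 3xTg, and from 0 to 822 with a median of 3.75 in WT. The groups overlapped, except that WT 57, at 822, lay above every 3xTg cell, and 30 cells of each genotype had a count. The mean was 4.75 ± 2.91 against 3.50 ± 2.94, a difference of 1.24, while the ratio was 0.28. The first runs gave a difference of 0.39 and a ratio of 0.54. The second gave a difference of 2.14 and a ratio of −0.16, so the ratio changed sign between them. That sign rests on the cell WT 57, which held 45.1% of the Cap2 counts of the second WT run. Without it the ratio was 0.60 for the second runs and 0.68 over all cells.

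The make-up of the CAP pair is given as a description, since it contains the difference for which Cap1 was selected. Per kilobase of transcript, Cap1 made up 76.7% of the summed Cap1 and Cap2 counts in 3xTg and 49.2% in WT. Cap1 was the higher of the pair per kilobase in 26 of 33 3xTg cells and in 11 of 35 WT cells. The split followed the runs: the Cap1 share was 70.7% against 64.9% in the first runs and 81.97% against 25.5% in the second, where the WT value was 38.4% without WT 57. Over all cells the WT share was 56.8% without WT 57. Over all cells this was the largest shift among the 12 paralog pairs compared, but in the first runs other pairs shifted more, such as Twf1 with 54.2% of the Twf1 and Twf2 sum in 3xTg and 80.4% in WT. Next over all cells came Capza1, with 49.8% of the Capza1 and Capza2 sum in 3xTg and 37.2% in WT. Cfl1 held 93.9% and 94.3% of the Cfl1 and Cfl2 sum, and Actb held 30.3% and 30.7% of the sum of both actins.

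**Figure D2:**
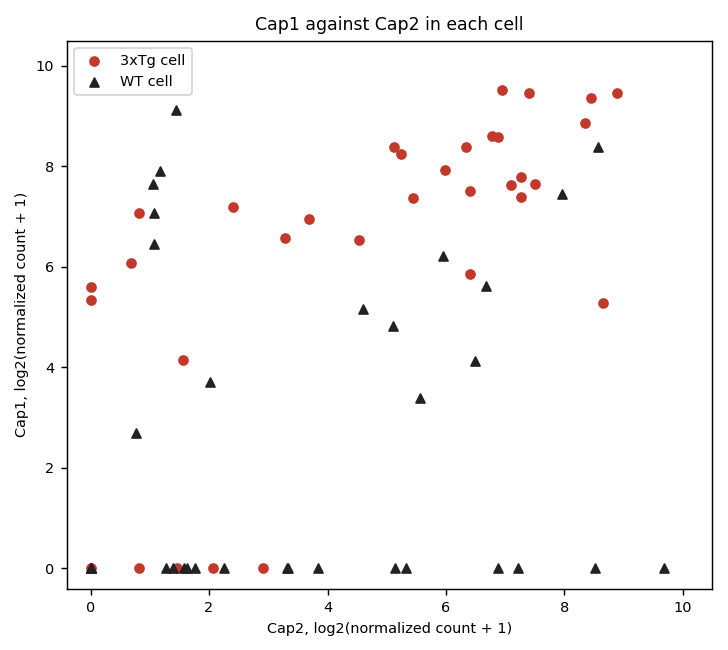
Cap1 against Cap2 in each cell, both as log2(normalized count + 1), with 3xTg cells as red circles and WT cells as black triangles. WT cells spread along both axes (rho 0.10, n = 35), while 3xTg cells with more Cap2 had more Cap1 (rho 0.71, n = 33).

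Across cells, Cap1 and Cap2 went together in 3xTg (Spearman rho 0.71, Pearson r 0.68, n = 33) and hardly in WT (rho 0.10, r 0.12, n = 35). The cells of a genotype share runs and differ in depth, and Cap1 also followed the total count in 3xTg (rho 0.62). Inside the runs rho was 0.63 in the first 3xTg run and 0.48 in the second, and 0.25 and −0.26 in the first and second WT runs. Over all other members the median rho with Cap1 was 0.24 in 3xTg and 0.10 in WT, beside medians of 0.17 and 0.06 for all expressed genes. In 3xTg, 2 of the 37 other members, Cap2 and Cttn (rho 0.55), lay above the 95th percentile of all expressed genes, which was 0.52. In WT, 2 of 37 lay above it (0.35), Wasl (rho 0.56) and Cttn (rho 0.41). Both tallies are close to the share of all genes that a 95th percentile leaves above it. In the second 3xTg run Cap2 and Cttn (rho 0.38) lay below its 95th percentile of 0.69. Cttn also lay below that of the first 3xTg run (rho 0.46 beside 0.56). Inside the WT runs Wasl lay above it in both, and Cttn in the first only.

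The promoter windows of 4 members are shown because they hold the CAP pair, the Arp2/3 subunit with the next largest difference, and an actin gene with a CArG box, the motif that serum response factor binds. Each is the 150 bases before the start of transcription in RefSeq (GRCm38.p6), read 5′ to 3′ on the strand of the gene. Capitals mark 4 motifs: the GC box, spelled GGGCGG, the CAAT box, spelled CCAAT, the TATA motif, spelled TATAAA, and the CArG box. Each was searched on both strands, so that a GC box can read CCGCCC and a CAAT box can read ATTGG.
Cap1, chr4:122886077-122886226, minus strand: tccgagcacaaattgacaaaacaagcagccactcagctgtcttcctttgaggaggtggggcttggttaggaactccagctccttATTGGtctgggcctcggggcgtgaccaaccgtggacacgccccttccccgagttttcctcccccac
Cap2, chr13:46501753-46501902, plus strand: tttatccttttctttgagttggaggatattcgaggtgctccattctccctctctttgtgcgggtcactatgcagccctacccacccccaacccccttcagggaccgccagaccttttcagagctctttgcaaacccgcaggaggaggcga
Arpc1a, chr5:145083719-145083868, plus strand: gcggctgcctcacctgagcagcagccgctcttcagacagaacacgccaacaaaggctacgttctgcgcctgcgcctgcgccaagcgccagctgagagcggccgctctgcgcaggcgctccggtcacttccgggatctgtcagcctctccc
Actg1, chr11:120348496-120348645, minus strand: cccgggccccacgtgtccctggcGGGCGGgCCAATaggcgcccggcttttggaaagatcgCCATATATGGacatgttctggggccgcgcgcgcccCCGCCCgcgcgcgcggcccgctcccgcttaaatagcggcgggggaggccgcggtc

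The Cap1 window held a single CCAAT match on the reverse strand and no GC box, and those of Cap2 and Arpc1a held none of the 4 motifs. The Actg1 window held 2 GC boxes, 1 CCAAT and 1 CArG box. RefSeq windows that reach 250 bases before and 50 bases after the start were at hand for 33 of the 38 members. Actb, Cttn, Twf2, Actr3b and Arpc5l were not matched. The 33 genes had 42 windows, since some have several starts. A GC box was present in 35 of the 42 (83.3%), beside 35.7% of all 32851 promoter windows, and the median GC content was 63.8% beside 52.7%. CCAAT was found in 15 windows (35.7%, beside 37.4%), the CArG box in 2, those of Actg1 and Arpc4 (4.76%, beside 1.63%), and TATAAA in 0 of the 42 (beside 13.6%). Cap1, Cap2 and Arpc1a were thus among the 5 matched members without a GC box in their window. A match describes letters in a window and was not related to the counts.

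As a description of the whole set, of all 38 members, 35 had a difference above 0, beside 65.8% of the 17940 genes with a count in any cell, and 23 a ratio above 0, beside 42.3%. Over the 26 expressed members the median difference was 0.88, beside 0.47 for all expressed genes, and 25 of the 26 lay above 0 (70.9% of all expressed genes did). By means, 10 members were at least 2-fold higher in 3xTg, where 27.7% of all expressed genes were, and 0 were at least 2-fold lower, beside 0.527%. By sums, the median ratio was 0.12, and 16 members lay above 0, beside 47.9% of all expressed genes. Cap1 was the 1 member at least 2-fold higher by sums (2.63% of all expressed genes were), and 0 were lower (3.81%). It was also the 1 member past 2-fold on both measures, beside 2.13%. All 6 members that were expressed through the 3xTg cells alone are among the 10. Of the 20 members expressed in both genotypes, 4 were at least 2-fold higher by means (Cap2, Arpc5, Capza1 and Capzb), where 14.2% of the 2748 genes expressed in both were, and 0 by sums, beside 0.728%. Their median difference was 0.59 and their median ratio 0.07, beside 0.22 and −0.11 for those genes. Above 0 lay 19 of the 20 by means (63.2% of those genes) and 11 by sums (40.5%). Cap1 was also the 1 member whose difference was larger than the SD of either genotype, as for 0.351% of all expressed genes.

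**Figure D3:**
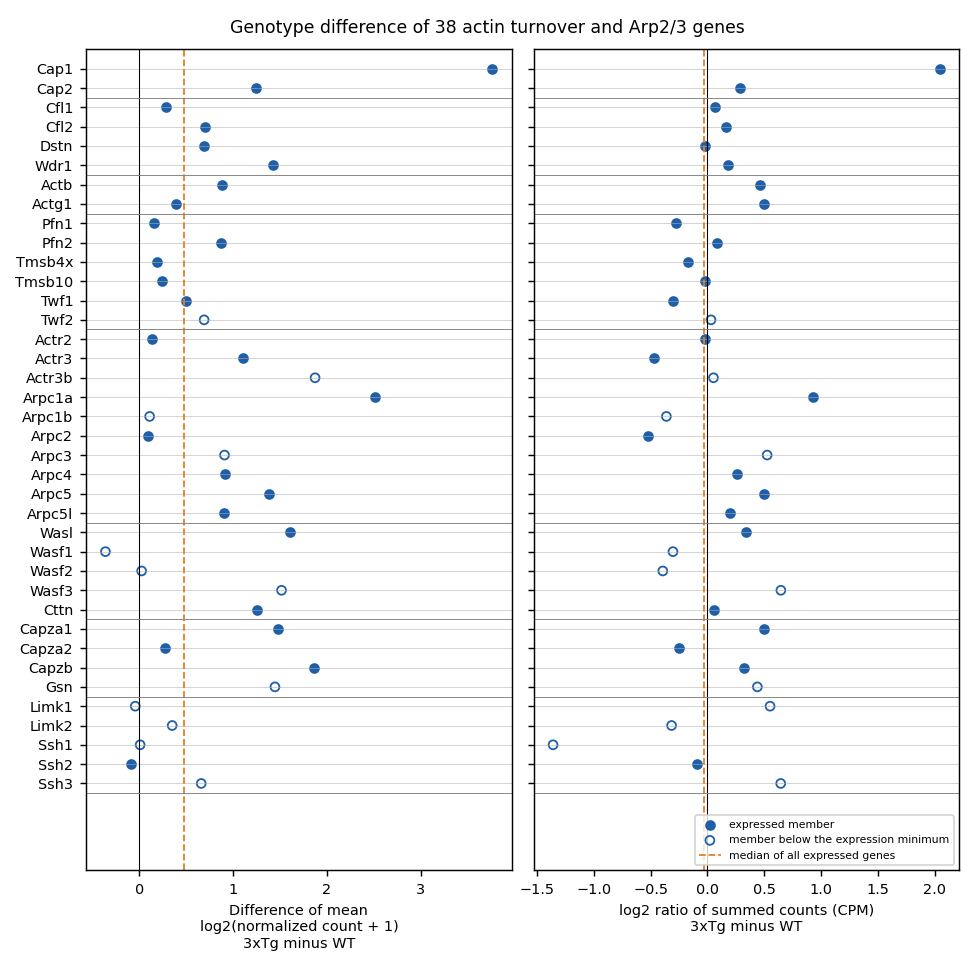
Difference of means (left) and log2 ratio of summed counts (right), 3xTg minus WT, for the 38 members in the order of their roles. Filled points are the 26 expressed members, open points the other 12, and the dashed line is the median of all expressed genes. Cap1 lies apart on both axes at 3.76 and 2.05, followed by Arpc1a at 2.51 and 0.93.

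The 11 partners of Cap1 in subunit recycling all had a difference above 0, beside 65.8% of all genes with a count in any cell. Of the 10 expressed partners, 7 lay above 0 in both pairs of runs, beside 50.7% of all expressed genes. The median over these partners (Cap2, cofilins, Dstn, profilins, actins, twinfilins and Wdr1) was 0.69 for the difference and 0.09 for the ratio. Cap1 lay 3.07 above the first and 1.96 above the second, a gap that the choice of Cap1 fixes in its direction. Of the 10 expressed partners, Cap2 and Wdr1 were at least 2-fold higher by means, beside 27.7% of all expressed genes, and 0 by sums, beside 2.63%. Wdr1 was expressed through the 3xTg cells alone.

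Cfl1, cofilin-1, severs filaments and was among the most abundant members. It had 89 to 5454 normalized counts in WT with a median of 1185, and 115 to 3790 in 3xTg with a median of 1591. Every cell had a count and the genotypes overlapped nearly fully, with means of 10.2 ± 1.22 and 9.94 ± 1.39. The difference was 0.29, but −0.32 for the first runs, and the ratio was 0.06. Cfl2, the cofilin best known from muscle, lay far lower per kilobase (40.2 CPM per kilobase in 3xTg and 35.9 in WT, beside 620 and 593 for Cfl1). Its median was 98.8 normalized counts in 3xTg (0 to 443) and 82.4 in WT (0 to 553). The difference was 0.70, but 0.02 among cells that had a count, and the ratio was 0.16. Dstn, which encodes the actin-depolymerizing factor destrin, had a median of 421 in 3xTg (0 to 1788) and 334 in WT (0 to 1480), a difference of 0.69 and a ratio of −0.02. Wdr1, the cofactor that helps cofilin take filaments apart, had a difference of 1.43 and a ratio of 0.18. The Wdr1 difference was 0.23 among cells that had a count, 0.47 for the first runs and 2.35 for the second. For Wdr1 31 of 33 3xTg cells and 27 of 35 WT cells had a count.

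The actins Actb and Actg1, the beta and gamma forms of the cytoplasm, were counted in every cell. Actb had a median of 688 normalized counts in 3xTg (89.5 to 1582) and 415 in WT (11.6 to 3704). The genotypes overlapped, with means of 9.24 ± 1.03 and 8.36 ± 1.48, a difference of 0.88 and a ratio of 0.47. Actg1 had a median of 810 in 3xTg (2.30 to 2766) and 612 in WT (29.02 to 1825), a difference of 0.40 and a ratio of 0.49. For the actins the ratio kept its sign in both pairs of runs, at 0.29 and 0.72 for Actb and at 0.31 and 0.60 for Actg1. The Actg1 difference did not, at −0.41 for the first runs and 1.20 for the second.

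Monomer-binding proteins hold actin subunits in reserve or hand them on. Their 5 expressed members had differences from 0.15 to 0.87, all above 0 (70.9% of all expressed genes were), and 1 of the 5 ratios lay above 0 (beside 47.9%). In both pairs of runs, 2 of the 5 differences lay above 0 (beside 50.7%). Their median was −0.13 for the first runs and 0.62 for the second. Pfn1, the profilin of most cells, had a difference of 0.15 and a ratio of −0.28, and Pfn2, the neuronal profilin, had 0.87 and 0.09. Both Pfn1 values changed sign, from −0.87 and −0.79 for the first runs to 0.84 and 0.31 for the second. The Pfn2 ratio also did, from −0.24 to 0.41. The thymosins Tmsb4x and Tmsb10 were the most abundant members per kilobase, with 1485 and 2735 CPM per kilobase in 3xTg and 1673 and 2781 in WT. Their differences were 0.19 and 0.24, and their ratios −0.17 and −0.02. For Tmsb4x, 22.7% of the 3xTg counts came from cell 3xTg 43, the cell with the highest microglial marker sum (7139 CPM), and the top WT cell, WT 11, had the highest of its genotype (5142 CPM). The part of microglial RNA in the Tmsb4x counts was not tested. Twf1, twinfilin-1, which binds subunits and filament ends, had a median of 76.1 normalized counts in 3xTg (0 to 361) and 79.9 in WT (0 to 446). Its difference was 0.50, its ratio −0.30, and among cells that had a count it was −0.01. Twf2 was below the expression minimum (15 and 13 cells with a count).

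The Arp2/3 complex is built from the products of 10 of the members. Of these genes, 7 were expressed, with differences from 0.09 to 2.51 and a median of 0.91. Their ratios ran from −0.52 to 0.93 with a median of 0.20, and 4 of the 7 were above 0, beside 47.9% of all expressed genes. Arpc1a, a WD-repeat subunit that helps the activators engage the complex, stood highest. Its normalized counts ranged from 0 to 451 with a median of 152 in 3xTg, and from 0 to 319 with a median of 27.4 in WT. The genotypes overlapped, and 29 of 33 3xTg cells and 24 of 35 WT cells had a count. The mean was 6.46 ± 2.58 against 3.95 ± 3.27, a difference of 2.51 that ranked 41 among the 3988 expressed genes, and the summed counts were 6200 and 3017, a ratio of 0.93 that ranked 132. Like Cap1, its difference was the larger between the second runs, at 3.94 against 1.57, and its ratio was 1.38 against 0.58. Its paralog Arpc1b made up little of the pair, with 247 counts in 3xTg and 294 in WT, and Arpc1a held 98.0% and 95.1% of the pair per kilobase.

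Arpc2, part of the core that holds the complex on the mother filament, had the lowest ratio of the expressed members. Its median was 168 normalized counts in 3xTg (0 to 1361) and 138 in WT (0 to 3211), with a ratio of −0.52 and a difference of 0.09 that was −0.09 on the CPM scale. Actr3, the actin-related protein Arp3, had opposite signs on the 2 measures, with a difference of 1.10 and a ratio of −0.47. Its ratio was −0.78 for the first runs and 0.14 for the second, and its difference was 0.03 among cells that had a count. Its median was 86.7 normalized counts in 3xTg (0 to 540) and 54.96 in WT (0 to 1929). A count was found in 27 3xTg and 23 WT cells, and 28.5% of the WT sum came from a single cell. Actr2, its partner Arp2 in the new filament's first subunits, had a median of 418 in 3xTg (0 to 3461) and 350 in WT (0 to 1672), a difference of 0.13 (−0.36 after thinning to equal totals, which left out 2 3xTg and 5 WT cells) and a ratio of −0.03. Arpc5 had a difference of 1.38 and a ratio of 0.50, with medians of 168 (0 to 756) in 3xTg and 89.8 (0 to 602) in WT. Its difference was alike in both pairs of runs, at 1.54 and 1.51. Arpc4 (0.91 and 0.26) and Arpc5l (0.90 and 0.20) lay near the median of the complex, but Arpc4 shares its locus with Ttll3 on the same strand (478 and 393 counts), so its reads are less certain. Arpc3, Arpc1b and Actr3b were below the expression minimum. Actr3b, an Arp3 form enriched in brain, was counted in 26 of 33 3xTg cells and 15 of 35 WT cells, with a difference of 1.87 and a ratio of 0.05.

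Because the complex works as a whole, the 7 subunit positions were also counted in each cell, with paralogs sharing a position. The median cell of either genotype had a count for 6 of the 7. All 7 were counted in 16 of 33 3xTg cells and 8 of 35 WT cells. Arpc3 was missing most often, and without it the numbers were 26 and 18. By run, 1 of 17 cells of the first WT run and 7 of 21 of the first 3xTg run had all 7, and 6 of 15 and 9 of 12 of the second runs. The count of positions moved with the runs and with the number of genes detected, whose part was not tested.

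**Figure D4:**
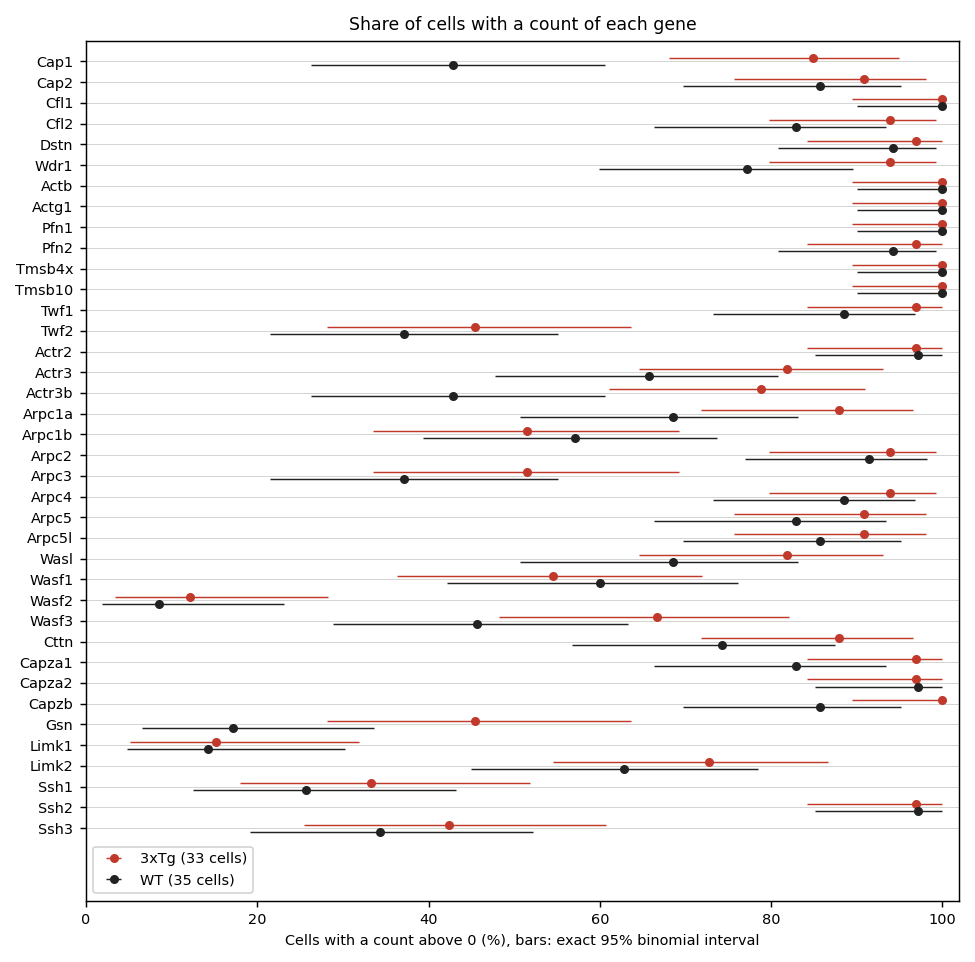
Share of cells with a count above 0 of each member in 3xTg (red, 33 cells) and WT (black, 35 cells), with exact 95% binomial intervals as bars. The bars cover the counting of cells and not the spread between mice. The share of Cap1 is 84.8% in 3xTg and 42.9% in WT, and that of Actr3b 78.8% and 42.9%.

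Of the 5 genes for activators of the complex, 2 were expressed. Wasl, which encodes N-WASP, had a difference of 1.61 and a ratio of 0.34, and Cttn, cortactin, which steadies branches, had 1.26 and 0.06. The Cttn difference was 2.64 for the second runs and −0.0049 for the first. None of the WAVE genes Wasf1, Wasf2 and Wasf3 was expressed by the minimum used. Wasf1, the main neuronal form, had a difference of −0.36 and a ratio of −0.30 (18 and 21 cells), Wasf3 had 1.52 and 0.65 (22 and 16 cells), and Wasf2 was counted in 4 and 3 cells.

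Capping protein closes the barbed end, and its beta subunit is encoded by Capzb. Capzb had a median of 354 normalized counts in 3xTg (1.53 to 974) and 259 in WT (0 to 1176). It was counted in 33 of 33 3xTg cells and in 30 of 35 WT cells, and within these ranges the genotypes overlapped. The mean was 8.15 ± 1.57 against 6.28 ± 3.48, a difference of 1.87, which was 1.41 for the first runs and 1.94 for the second, but the ratio was 0.32. The alpha subunits differed from each other, with a difference of 1.48 and a ratio of 0.50 for Capza1 and 0.28 and −0.25 for Capza2. Gsn, gelsolin, which severs and caps filaments, was counted in 15 of 33 3xTg and 6 of 35 WT cells, below the minimum, and 10 of these 15 cells were in the second 3xTg run.

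Of the kinases and phosphatases that switch cofilin off and on, 1 of 5 passed the expression minimum. Ssh2, a slingshot phosphatase that activates cofilin, was the 1 expressed member with a difference below 0. Its median was 6.14 normalized counts in 3xTg (0 to 175) and 7.96 in WT (0 to 165), with a difference of −0.09 and a ratio of −0.09. The Ssh2 difference was 0.11 for the first runs and 0.10 for the second, so its sign turned within the runs. The Ssh2 ratio was 0.98 for the first runs and −0.48 for the second. Limk1, a kinase that inactivates cofilin, was counted in 5 cells of each genotype, and Limk2 in 24 and 22 cells. For Limk2 the sums were 2329 and 2686 counts, with a difference of 0.35 and a ratio of −0.32. Ssh1 had 88 counts in 3xTg and 209 in WT (ratio −1.36), but 49.8% of the latter came from a single cell. Ssh3 was counted in 14 and 12 cells.

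For most members the difference, taken with its sign, lay higher between the second runs than between the first. This held for 20 of the 26 expressed members, beside 48.6% of all expressed genes. The median member difference was 0.43 for the first runs, beside 0.39 for all expressed genes, and 1.24 for the second, beside 0.60. Differences above 0 in both pairs of runs were found for 18 of the 26 members (50.7% of all expressed genes) and ratios above 0 in both for 9 (27.2%). Of these 9 (Cap1, Cfl2, Actb, Actg1, Arpc1a, Arpc5, Wasl, Capza1 and Capzb), Actg1 alone had a difference below 0 in the first runs. The genotype and the position in the label series cannot be told apart within a pair of runs, since each run holds 1 genotype.

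**Figure D5:**
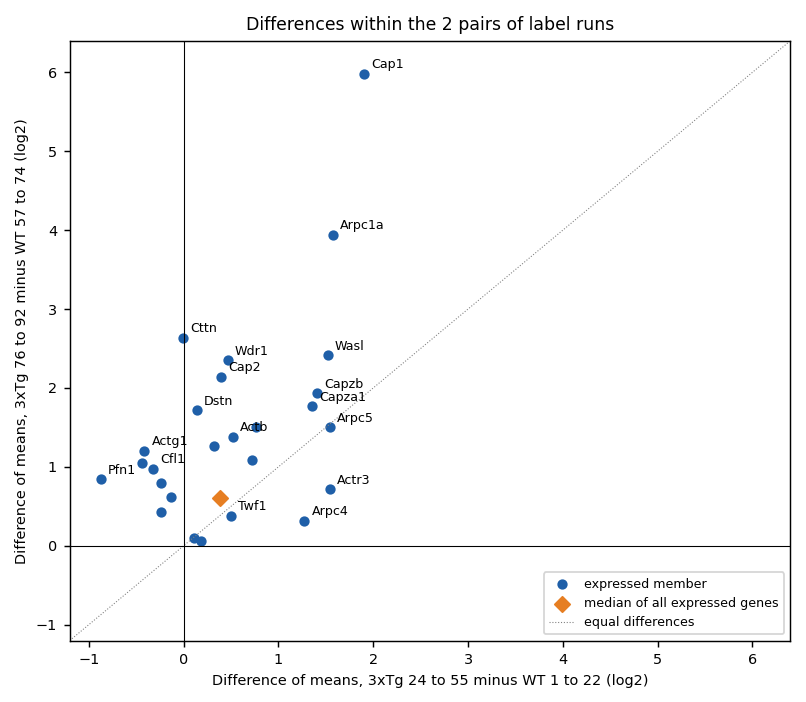
Difference of means between the second runs (3xTg 76 to 92 minus WT 57 to 74, vertical axis) against that between the first runs (3xTg 24 to 55 minus WT 1 to 22, horizontal axis), for the 26 expressed members, some of which are named. The diamond is the median of all expressed genes and the dotted line marks equal differences. Of the 26 points 20 lie above the line, with Cap1 (1.90 and 5.98) farthest from it.

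Other genes of actin control were listed for comparison. Of 34 listed, 31 were matched by symbol, and the formins Diaph1, Diaph2 and Diaph3 were not analysed here. Of the 31, 11 were expressed, 2 of them (Rac1 and Cyfip2) through the 3xTg cells alone. By means, 5 were at least 2-fold higher in 3xTg (Rac1, Pak3, Cyfip2, Abi2 and Brk1), beside 27.7% of all expressed genes, and by sums 0, beside 2.63%. Tmod3, a tropomodulin that caps the pointed end, was at least 2-fold lower by sums, beside 3.81%. Rac1, the GTPase that acts on WAVE, had a difference of 1.27 and a ratio of 0.33, and Cdc42, which activates N-WASP, had 0.99 and 0.25. Tmod3 had a difference of −0.86 and a ratio of −1.14. Below the expression minimum, Abi1, a subunit of the WAVE complex, had a ratio of 1.34, which was 1.95 for the first runs and 0.16 for the second. Coro1b, a coronin that acts on Arp2/3 branches, had 1.36 (20 and 9 cells with a count). The kinase gene Rock1 had a ratio of −1.15 (1183 and 2439 counts), which was 0.14 for the first runs and −2.42 for the second, and Cyfip1 of the WAVE complex had −0.83. For Cyfip1, 43.6% of the 3xTg counts and 33.6% of the WT counts each came from a single cell. These 4 genes (Abi1, Coro1b, Rock1 and Cyfip1) were named after their values had been seen. Larger ratios were found for Coro2b (2.22, 8 and 7 cells), Fhod3 (1.52, 13 and 5 cells) and Fmnl1 (1.49, 5 and 2 cells).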

How the data were processed

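Patch-seq libraries of 68 single cells (33 3xTg, 35 WT) were poly-A selected and amplified by 28 cycles of PCR. Per the study's methods, the authors trimmed the reads and aligned them to RefSeq transcripts of mm10 with Strand NGS, dropped duplicates and deposited estimated counts per gene. They required dopaminergic markers in a cell and no marker of glia or of Pvalb neurons. In the deposited counts, 5 3xTg and 5 WT cells nonetheless had a count of Tmem119, P2ry12, Aldh1l1 or Pvalb. The log2 values deposited beside the counts were normalized by the authors with DESeq2 and were used as an alternative only. Of the estimated counts above 0, 55.3% were not whole (tolerance 0.001).

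Size factors (the DESeq2 median of ratios over 787 genes) were calculated from the deposited counts, with a pseudocount of 1 on the log2 scale. Sums, thinning to 700471 counts and edgeR TMM factors used rounded counts. Poisson and Clopper-Pearson intervals are at 95%. Lengths are means over the GENCODE transcripts of a gene that pair with a RefSeq mRNA. The members and lists were chosen with earlier results of these data known. Values in full were given for Cap1, Cap2, the ADF/cofilin genes, the actins and the 3 highest and 3 lowest expressed members on each measure. Alternatives were other scalings, pseudocounts and filters, thinned cells, leaving out cells that had a marker of a different cell type, each pair of runs, and each cell left out in turn. The calculations were tested on simulated data. Python 3.11.15, numpy 2.4.6, scipy 1.17.1, pandas 2.3.3, matplotlib 3.10.9, R 4.3.3 and edgeR 4.0.16 were used. Some items, a gene that followed Cap1 across cells among them, are not reported here.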

Additional observations from a re-analysis of the deposited data

How the results depend on the processing

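Of 92 alternative values of the main results, 72 stayed within the limit set for their kind. The limit was the SD across cells for the Cap1 difference and its excess over its partners, and 1.5 times for counts of members. For the Cap1 ratio and shares it was the counting interval, and for medians over members a fixed amount. All 180 of 180 values of the named members moved by less than their SD across cells. That SD is wide, and 11 of the 180, for 6 members, changed sign: Cfl1 (−0.32), Actg1 (−0.41), Actr2 (−0.44), Arpc2 (−0.24) and Ssh2 (0.11) for the first runs, Ssh2 also for the second (0.10) and without WT 94 to 96 (0.07), Arpc2 as CPM (−0.09) and in cells with a count (−0.10), Actr2 in thinned cells (−0.36) and Twf1 in cells with a count (−0.01). The Cap1 difference (3.76) was 1.47 in cells with a count, 1.90 for the first runs, 5.98 for the second and 2.31 with a pseudocount of 10, and its excess over its partners (3.07) was 1.51, 4.72 and 1.85 in the last 3 of these. The median member difference minus that of the median gene (0.40) was 0.30 with a pseudocount of 10, 0.27 without the 10 cells that had a marker of another cell type, 0.56 with no filter, 0.042 for the first runs and 0.63 for the second. The 10 members at least 2-fold higher by means became 4 with a pseudocount of 10, 5 in thinned cells (2 3xTg and 5 WT cells of lower totals left out) and 16 for the second runs. The Cap1 ratio (2.05) was 2.18 in thinned cells, 1.87 with sums of normalized counts, 1.93 without WT 94 to 96 (added after the data had been seen), 0.92 for the first runs and 3.57 for the second. The median member ratio (0.12) turned to −0.041 for the first runs and was 0.30 for the second, and the cause was not tested. Members at least 2-fold higher by sums (1) numbered 0 for the first runs, 2 for the second and 2 with sums of normalized counts, and 1 (Ssh1) was lower with no filter. The Cap1 difference in the share of cells (41.99 percentage points) was 23.3 for the first runs and 60 for the second. With each cell left out in turn, the Cap1 difference lay between 3.66 and 3.96, its ratio between 1.97 and 2.44 (the highest without WT 9), its share difference between 40.7 and 44.6 points, and its excess over its partners between 2.90 and 3.32. No paired analysis was possible because the genotypes share no label number. A count of 0 in a cell does not show that a transcript was absent.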

Other observations

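Among the genes whose level across the 68 cells followed Cap1 most closely, with the median of each run removed, were Cdv3 (Spearman rho 0.59), Sec22b (0.53), Trim44 (0.52) and Tpm1 (0.52). The 95th percentile over the 3987 other expressed genes was 0.32 and the median 0.10. The cells share depth and library preparation, so this is a description. Tpm1, a tropomyosin that lies along actin filaments, had a difference of 1.86 and a ratio of 1.03 and was counted in 27 of 33 3xTg and 23 of 35 WT cells, whereas Cdv3 had a difference of 0.75 and a ratio of −0.23.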
